A study of Homo sapiens with 20 samples.

Results

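The regions described here were the sites at which HIF1A chromatin binding was called in hypoxic RKO cells and in no other line of the study, and which lay far from gene starts. They were selected on the peak calls themselves. Every peak of the RKO hypoxia list was kept whose region, built by joining peaks of the 4 hypoxia lists that overlapped by 1 bp or more, held no peak of another line, and whose centre was more than 2500 bp from the start of every protein-coding or lncRNA gene (GENCODE release 44 lifted to GRCh37). This left 7038 RKO-only distal peaks, 76.7% of the 9171 RKO hypoxia peaks and part of the 22452 hypoxia peaks of the 4 lines. The other RKO hypoxia peaks were 1100 RKO-only peaks near a gene start (RKO-only proximal), 269 distal peaks shared with at least 1 other line (shared distal) and 764 shared proximal peaks.

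HIF1A occupancy was measured by chromatin immunoprecipitation and sequencing (ChIP-seq) in 4 established human cancer cell lines, the colorectal lines HCT116 and RKO and the lung lines A549 and H460. Each line was kept in normoxia or in 1% O2 for 24 h, with 2 biological replicates per condition, an antibody against HIF1A and 1 input DNA library per line. All 4 lines were unmodified, and none of the samples lacked HIF1A or received a mock antibody, so the only background was the input. The replicates were merged before peaks were called, so each line and condition was 1 list without replicate error, no difference between lists could be tested, and the intervals below are 95% Wilson intervals that cover counting error only. The labels of the RKO input disagree. Its title and cell line field give RKO, its description gives A549 cells, and its source field gives HCT116 cells, while the A549 input is described as RKO DNA. The header of the RKO hypoxia list names an RKO input. Which DNA was used could not be told from these labels, and every fold over input below carries that limit.

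HIF1A is the oxygen-regulated subunit of the transcription factor HIF-1. Prolyl hydroxylases mark it for degradation when oxygen is present, and in hypoxia it accumulates, pairs with ARNT and binds the hypoxia response element (HRE), whose core is ACGTG or GCGTG. It binds near the starts of genes for glycolysis, glucose transport and angiogenesis as well as at distant enhancers, which often also carry sites for cell type-dependent factors such as AP-1, the dimer of FOS and JUN proteins that recognises TGACTCA or TGAGTCA.

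The following reference sequences (GRCh37, plus strand) show what the strongest and the weakest RKO-only distal peaks held, with HRE cores and AP-1 motifs on either strand in capitals. The first 4 are strong peaks with an HRE core, chosen as the strongest intergenic peak with that core, the strongest with both motifs outside an untranslated region (chosen after its values were seen) and those nearest BHLHE41 and FOSL1.

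chr1:242113878-242114038, upstream of BECN2: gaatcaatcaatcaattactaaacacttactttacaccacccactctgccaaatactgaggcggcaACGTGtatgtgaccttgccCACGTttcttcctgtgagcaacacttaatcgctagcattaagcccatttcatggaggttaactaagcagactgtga
chr1:43524292-43524452, intergenic: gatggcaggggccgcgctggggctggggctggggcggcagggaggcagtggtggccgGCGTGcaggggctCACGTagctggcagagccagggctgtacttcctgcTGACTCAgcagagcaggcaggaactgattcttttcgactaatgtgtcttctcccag
chr12:26267364-26267524, near BHLHE41: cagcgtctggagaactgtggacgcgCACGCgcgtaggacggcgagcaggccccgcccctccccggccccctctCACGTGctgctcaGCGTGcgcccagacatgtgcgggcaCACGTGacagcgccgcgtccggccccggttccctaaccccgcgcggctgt
chr11:65679190-65679350, near FOSL1: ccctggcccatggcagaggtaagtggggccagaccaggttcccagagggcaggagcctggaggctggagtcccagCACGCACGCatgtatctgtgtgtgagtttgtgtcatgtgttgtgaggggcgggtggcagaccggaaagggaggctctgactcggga

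The next sequence is that of a strong peak in an exon of the lncRNA SNHG3, which held no HRE core.

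chr1:28836313-28836473, in SNHG3: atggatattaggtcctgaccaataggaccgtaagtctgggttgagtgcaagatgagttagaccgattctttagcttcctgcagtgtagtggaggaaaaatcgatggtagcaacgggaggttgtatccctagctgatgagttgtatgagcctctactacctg

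The last pair are 2 of the 3 weakest peaks, of 13 and 14 tags, without either motif.

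chr17:43670637-43670797, intergenic: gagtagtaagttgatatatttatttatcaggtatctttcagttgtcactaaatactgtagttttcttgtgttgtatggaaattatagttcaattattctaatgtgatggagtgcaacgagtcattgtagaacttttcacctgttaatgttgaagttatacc
chr13:97343016-97343176, in an intron of HS6ST3: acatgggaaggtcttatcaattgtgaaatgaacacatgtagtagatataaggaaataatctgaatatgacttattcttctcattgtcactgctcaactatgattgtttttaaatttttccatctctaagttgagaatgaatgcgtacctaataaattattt

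Several of the strongest peaks lay in untranslated regions, where no whole peak is printed. The strongest peak of all, in RGS4, held the core at chr1:163044725-163044749 (tgttggccagCACGTtctccagact).

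Most RKO-only distal peaks were weak. The signal of a peak is given as the normalized tag count, the number of sequenced tags in its 160-bp window per 10 M (mega) tags of the merged library, and the RKO hypoxia library held 66.9 M tags. The median over the 7038 peaks was 3.14 (quartiles 2.99 and 3.44, range 1.94 to 32.9), which corresponded to 21 tags in a list whose tag threshold was 20. Of these peaks, 2913 (41.4%) held 20 tags or fewer, 5035 (71.5%) held 22 or fewer, and 151 (2.15%) held 31 or more. Of the 2913, 1222 held exactly 20 recovered tags and the rest held 13 to 19, below the threshold of the list. The shared distal peaks of the same library had a median normalized tag count of 4.93, and 57.6% of them held 31 tags or more. In the input, 28.5% of the RKO-only distal peaks had no tag (95% interval 27.5 to 29.6) and 80.2% had at most 1, so that their fold over input rested on a count of 0 or 1. These values belong to the calls that selected the peaks and describe them without a test.

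**Figure D1:**
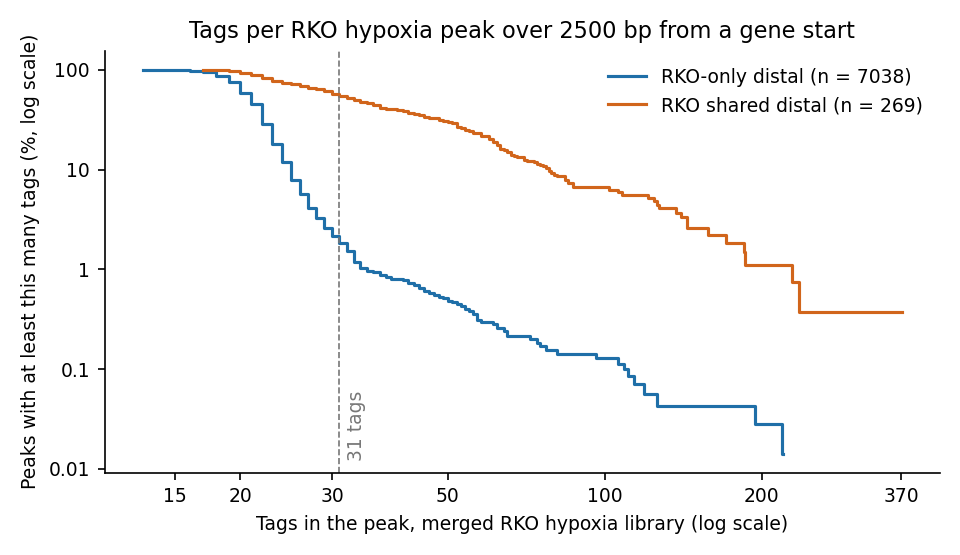
Share of peaks (y axis, percent, log scale) that held at least the number of tags on the x axis (log scale) in the merged RKO hypoxia library, for the 7038 RKO-only distal peaks (blue) and the 269 shared distal peaks (orange). The RKO-only curve falls to 2.15% at 31 tags (dashed line), where the shared curve stands at 57.6%.

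The limits of the selection were close to many peaks. At the limit of 2500 bp, the nearest members off chromosome 8 had their centres 2506 and 2508 bp from a gene start, with normalized tag counts of 3.29 and 2.69, and the nearest RKO-only peaks that were left out had theirs at 2485 and 2496 bp, with 3.44 and 2.99. The lowest fold over input among the members was 6, the value required by the list, at normalized tag counts of 4.78. The lists of the other lines required a fold over input of 7 (HCT116), 13 (A549) and 14 (H460), so absence from those lists was judged by another threshold than presence in the RKO list. When 14 was required of all 4 lines before joining, 2318 RKO-only distal peaks were left. The peak of another line nearest to a member had its centre 156 bp away, and 66 members (0.938%, 0.738 to 1.19) had one within 1000 bp. The median distance to a hypoxia peak of another line was 97795 bp.

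The HRE core was no more frequent at the centres of the RKO-only distal peaks than beside them. It was found, on either strand, in 17.5% of the 200-bp windows at their centres (1233 of 7038, 16.6 to 18.4), in 17.4% of windows 2000 bp to either side (16.8 to 18) and in 16.4% of same-length windows spaced evenly over the genome. The control motif ACGAG or GCGAG, with the same CpG, was in 11.2% of the centres and 11.8% of the flanks. The 1850 distal peaks of the RKO normoxia list held the HRE core at 14.9% of centres (13.4 to 16.6) and 17.6% of flanks. A share near that of the flanks was thus not particular to the RKO-only distal hypoxia peaks. By contrast, 87.4% of the shared distal peaks of the same RKO library (82.9 to 90.8) held the core at their centre, against 24.3% in their flanks. The line-only distal peaks of the other lines held it in 43.1% (HCT116), 36.2% (A549) and 61.4% (H460) of centres, with 22.2%, 19.5% and 21.8% in the flanks. The intervals of these shares did not overlap that of RKO, although the lists were called at different thresholds. When a fold of 14 was required in all lines, RKO had 18.5% and the other lines between 38.7% and 63.3%. The control motif was also more frequent at the centres of the shared distal peaks and of the other lines' line-only distal peaks than beside them. It was in 41.6% of the shared distal centres and 16.7% of their flanks. In HCT116-, A549- and H460-only distal peaks it was in 25.1%, 15.9% and 21.8% of centres, with 15.4%, 13.6% and 15.4% in the flanks.

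The 151 RKO-only distal peaks with 31 tags or more carried the HRE core more often than the rest. The split was set after the values of these peaks had been seen, so the step at 31 tags is not independent of that choice. In these strong peaks the HRE core was at 53.0% of the centres (80 of 151, 45.0 to 60.8) and in 26.8% of the flanks (22.1 to 32.1), and in the other 6887 it was at 16.7% (15.9 to 17.6) and 17.2% (16.6 to 17.8). With 20 tags or fewer the share was 15.7%, with 21 or 22 tags 18%, with 23 to 25 tags 17.2%, and with 26 to 30 tags 15.8%. The RKO-only proximal peaks, which came from the same library and had the same numbers of tags, held the core in 40.5%, 48.7%, 55.7% and 75.3% of those 4 classes and in 83.2% at 31 tags or more. Thus weak peaks of the library near gene starts carried the core more often than weak ones far from them, but their flanks also held it more often (23% to 33.9%), and the centres of these 4 classes had a GC content of 53.8% to 61.9%, against 41.7% to 42.3% in the distal ones. The control motif was in 34.3%, 36.4%, 42.6% and 49.3% of the centres of the 4 proximal classes, with 14.8% to 20.4% in their flanks. In the strong distal peaks it was in 25.2% of centres and 17.2% of flanks.

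**Figure D2:**
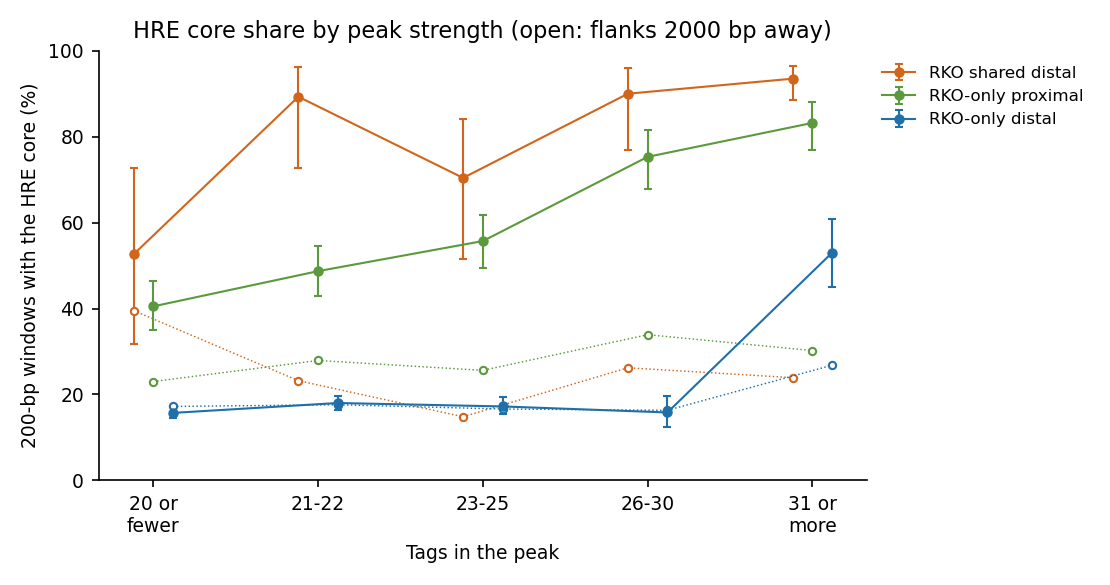
Percent of 200-bp windows with the HRE core (y axis) by the number of tags in the peak (x axis), for RKO-only distal (blue), RKO-only proximal (green) and shared distal peaks (orange), with 95% Wilson intervals as bars and flanking windows 2000 bp away as open points. The blue points lie on their flanks up to 30 tags, between 15.7% and 18%, and rise to 53.0% at 31 tags or more.

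Within the strong peaks the core lay at the centre. In bins of 50 bp it was found in 23.8% and 26.5% of the strong peaks on the 2 sides of the centre, and in 3.31% to 11.9% of them in the other 38 bins within 1000 bp. In the peaks under 31 tags the central bins held it in 5.26% and 5.18%, within the range of the other 38 bins (4.09% to 5.5%) but near its top. In the shared distal peaks the central bins reached 44.6% and 53.2%. Ranked by strength, the first 50 RKO-only distal peaks held the core in 62.0% (48.2 to 74.1), the next 50 in 64.0%, those ranked 101 to 150 in 32% (20.8 to 45.8), those ranked 151 to 200 in 30.0% (19.1 to 43.8) and those ranked 201 to 400 in 15.0% (10.7 to 20.6). The share fell in steps, and the interval of ranks 151 to 200, nearly all under 31 tags, lay partly above that of the weaker peaks. At ranks 201 to 400, the line-only distal peaks of HCT116, A549 and H460 still held it in 46.0%, 74.5% and 74.0%.

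**Figure D3:**
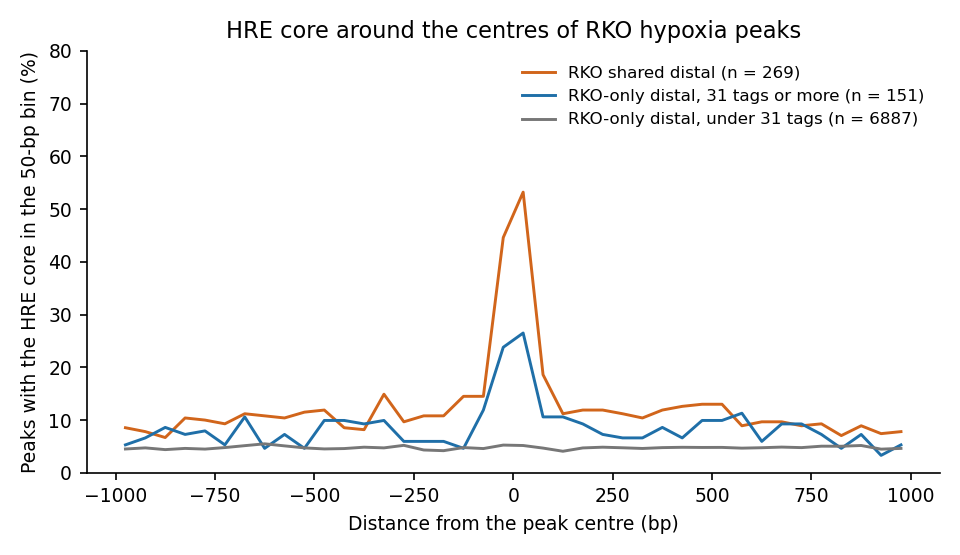
Percent of peaks with the HRE core in each 50-bp bin (y axis) by distance from the peak centre (x axis, bp), for shared distal peaks (orange), RKO-only distal peaks with 31 tags or more (blue) and those under 31 tags (grey). The central bins reach 53.2% and 26.5% in the first 2 groups, and the grey line stays between 4.09% and 5.5% throughout.

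Of the 151 strong peaks, 38 held only ACGTG, 25 only GCGTG, 17 both and 71 neither. The AP-1 motif was at 16.6% of their centres (11.5 to 23.3) against 4.64% in their flanks (2.78 to 7.63), and most of these also held the HRE core: 20 peaks had both motifs, 60 had the HRE core without AP-1, 5 had AP-1 without the core and 66 had neither. The E-box CACGTG, which contains the HRE core, was at 10.6% of the centres and 1.66% of the flanks. The CTCF motif was at 5.30% of the centres (8 peaks, 2.71 to 10.1) and at none of the 302 flanks, and it was in 0.0705% of the genome windows. CTCF is a zinc finger protein that anchors chromatin loops. The intervals of centre and flank overlapped for the ETS motif CCGGAA (8.61% and 3.97%), the GC box GGGCGG (15.9% and 8.61%), the TEAD motif GGAATG (12.6% and 10.9%), the RUNX motif TGTGGT (16.6% and 12.3%), the GATA motif AGATAA (7.95% and 9.27%), the forkhead motif TGTTTAC (2.65% and 0.662%) and the ZEB motif CAGGTG (16.6% and 22.8%).

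Over all 7038 peaks, the AP-1 motif had the largest excess at the centre in percentage points among the 13 motifs searched, and it was small. It was in 4.53% of the centres (4.07 to 5.04), 3.15% of the flanks (2.87 to 3.45) and 3.04% of the genome windows, while the control CTCATGA, with the same letters in another order, was in 2.97% and 3.07% of centres and flanks. The excess was also present in the 6887 peaks under 31 tags, with 4.27% (3.82 to 4.77) against 3.11% (2.84 to 3.42). The E-box was at 2.66% of all centres (2.31 to 3.06) and 1.90% of flanks (1.69 to 2.14), and CTCF, whose share at the centre exceeded that of the flanks by a larger factor than for AP-1, at 0.298% (21 peaks, 0.195 to 0.456) and 0.0781% (0.0436 to 0.140). The other motifs differed between centre and flank by at most 1.2 percentage points. Shared distal peaks held AP-1 at 26% of centres (21.1 to 31.6) and A549- and H460-only distal peaks at 13.3% and 14.2%. RKO normoxia distal peaks held it at 5.14% of centres (4.22 to 6.24) and 2.84% of flanks (2.35 to 3.42), a similar small excess.

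The GC and CpG content of the RKO-only distal peaks was close to that of their surroundings. Their centres had a GC content of 42.0% (SD 9.38 over peaks) against 41.5% in the flanks, and 1.95 CpG per window against 1.98. The RKO normoxia distal peaks had a GC content of 40.8% and 40.9%. The shared distal peaks had 58.4% GC and 11.9 CpG per window, the strong RKO-only distal peaks 50.2% and 5.89, and the peaks under 31 tags 41.8% and 1.86. Simple repeats were rarer at the centres of the RKO-only distal peaks (0.909%) than in their flanks (3.38%). The same held for shared distal (1.49% and 3.53%), HCT116-only distal (0.905% and 4.24%) and RKO normoxia distal peaks (0.757% and 3.22%).

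The RKO-only distal peaks were crowded on a few chromosome arms. On 6 arms (7q, 8q, 9q, 10p, 20p and 20q), chosen after the densities had been seen, there were 5.33 to 9.82 peaks per Mb of known sequence, and on the other 35 arms 0.649 to 2.46. These are densities per Mb of the reference assembly, and the copy number and repeats of these arms in RKO were not analysed here. The arm 8q had the highest density, with 974 peaks at 9.82 per Mb, followed by 9q with 523 at 7.08, 10p with 271 at 6.95, 7q with 579 at 5.94, 20q with 191 at 5.75 and 20p with 140 at 5.33. The opposite arms of 4 of the chromosomes were not crowded, with 1.92 per Mb on 8p, 1.58 on 9p, 2.27 on 10q and 1.78 on 7p. Together the 6 arms held 2678 members, or 38.1% (36.9 to 39.2), on 12.9% of the known bases. Of the shared distal peaks of the same library 10.8% lay there (7.61 to 15.1), of the RKO-only proximal peaks 22% (19.7 to 24.5), of the HCT116-, A549- and H460-only distal peaks 18.6%, 17.5% and 11.9%, and of the RKO normoxia peaks 49.7% (47.5 to 51.8).

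The local background moved with this density. It was taken for each peak from the fold over the surrounding 10000 bp in the list and is given as tags per 10 M per kb. Its median over the members was 4.59 to 6.21 on each of the 6 arms and 3.13 to 3.68 on each of the others, without overlap. Over all RKO hypoxia peaks the median on the 6 arms was 1.46 times that elsewhere (5.31 and 3.64), and over the RKO normoxia peaks 1.58 times (6 and 3.8). The same ratio was 1.05 in HCT116, 1.06 in A549 and 1.02 in H460 in hypoxia, and between 0.948 and 1.14 in their normoxia lists. Across the 22 autosomes, the members per Mb and the median local background of the members had a Spearman rho of 0.87, and the members per Mb and the RKO normoxia peaks per Mb one of 0.81. The members per Mb and the shared distal peaks per Mb had one of 0.22. These correlations describe points from 1 library or line and have no p. The tags that formed a peak and its local background came from the same reads, and the part of the background in the density was not tested.

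**Figure D4:**
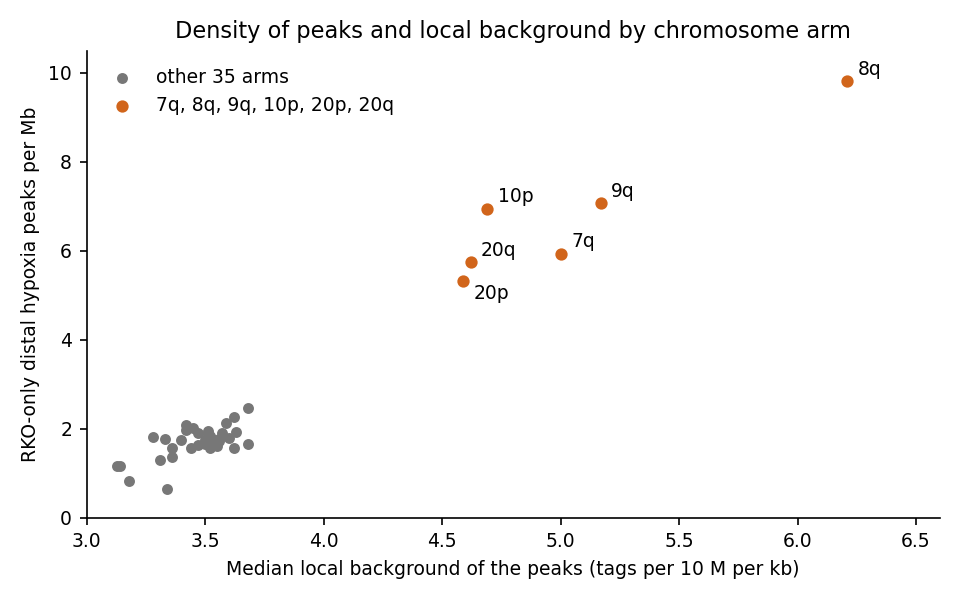
RKO-only distal hypoxia peaks per Mb (y axis) against the median local background of those peaks (x axis, tags per 10 M per kb), 1 point per chromosome arm. The arms 7q, 8q, 9q, 10p, 20p and 20q (orange) lie at 5.33 to 9.82 peaks per Mb and 4.59 to 6.21 background tags, apart from the other 35 arms (grey) at 0.649 to 2.46 and 3.13 to 3.68.

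The crowding was present in weak and strong peaks, and the strong peaks on the crowded arms carried the HRE core less often. Of the 151 strong peaks 58 (38.4%, 31 to 46.4) lay on the 6 arms. The core was at the centre of 20 of these 58 (34.5%, 23.6 to 47.3, flanks 20.7%) and of 60 of the 93 strong peaks elsewhere (64.5%, 54.4 to 73.5, flanks 30.6%). Under 31 tags the shares were 16.6% on the 6 arms and 16.8% elsewhere. The members on the 6 arms had a median local fold of 3.82 against 5.54 elsewhere, and 21.5% of them had no input tag against 32.8%.

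The gene bodies that held most members followed the same arms. ZFPM2, which encodes a cofactor of GATA factors, held 20 members over 1214 kb, LINC02055 held 18, CCDC26 13 and CFAP418-AS1 10, all on chromosome 8, and DENND1A, which encodes an endocytic exchange factor, held 10 on chromosome 9. These genes were chosen for their number of members. The 4 on chromosome 8 had 12.4 to 16.5 members per Mb of gene body, against 9.82 over the arm 8q, and DENND1A had 18.2, against 7.08 over 9q.

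Few RKO-only distal peaks were also called in normoxia. Only 34 of the 7038 (0.483%, 0.346 to 0.674) overlapped one of the 2092 RKO normoxia peaks, which came from a library of 45.1 M tags called with a 136-bp window, and none overlapped a normoxia peak of HCT116, A549 or H460 (upper limit 0.0546%). The overlap was concentrated in the strong peaks, with 21 of 151 (13.9%, 9.28 to 20.3) against 13 of 6887 (0.189%, 0.110 to 0.323). Low overlap with RKO normoxia peaks was not particular to the RKO-only distal peaks. It was 2.09% for RKO-only proximal (23 of 1100), 3.72% for shared distal (10 of 269) and 4.06% for shared proximal peaks (31 of 764). The share over all 7038 RKO-only distal peaks was lower still. As a share of the 2092 RKO normoxia peaks, the overlaps were 1.63% for RKO-only distal and 1.1% for RKO-only proximal peaks. For shared distal and shared proximal peaks they were 0.478% and 1.48%. Most RKO normoxia peaks were thus not called in hypoxia. Absence from the normoxia list does not give the normoxic signal at a site, since the deposited lists hold values only for called peaks.

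At 31 of the 34 sites the normalized tag counts of the 2 conditions lay within 1.5 times of each other, and at 30 of them per bp of window. Hypoxia gave the higher normalized tag count at 22 of them, and at 14 when the count was divided by the width of the window, with a median log2 ratio of 0.13 and, per bp, of -0.11. In RGS4, which encodes a regulator of G protein signalling, the peak at chr1:163044676-163044836 had 32.9 tags per 10 M in hypoxia and 31.3 in normoxia, and a second peak further on had 16.6 and 15.1. In C19orf81 the peak at chr19:51162363-51162523 had 29.0 and 22.8. Of the 10 strongest members, 8 overlapped a normoxia peak, and in 7 of these 8 the 2 values were within 1.3 times of each other. The exception was the site at chr1:242113878-242114038, 7111 bp upstream of BECN2, with 2 HRE cores at 17.8 in hypoxia and 3.77 in normoxia (log2 ratio 2.24, per bp 2.00). Further peaks among the 10 were in an intron of SHANK1 (chr19:51198724-51198884, 17.0 and 14), in an exon of the lncRNA SNHG3 within an intron of RCC1 (16.3 and 17.1) and in an untranslated region of SMTN (chr22:31500462-31500622, 14.4 and 16). The HRE core was at 14 of the 34 centres (41.2%, 26.4 to 57.8).

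**Figure D5:**
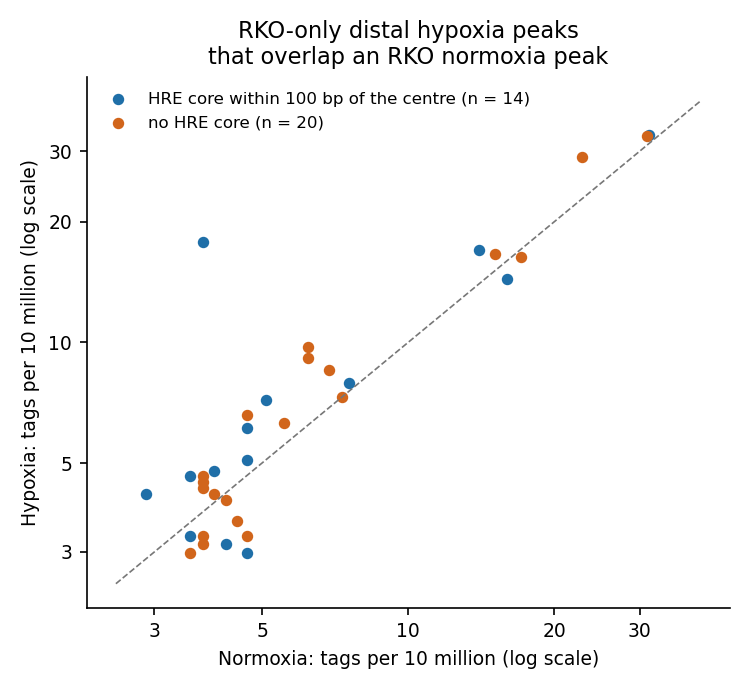
Normalized tag count in hypoxia (y axis, log scale) against normoxia (x axis, log scale) of the 34 RKO-only distal hypoxia peaks that overlapped an RKO normoxia peak, with the 14 that held the HRE core in blue and equal values on the dashed line. The point far above the line is the site upstream of BECN2, at 17.8 and 3.77.

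Strong members differed from the weak ones in where they lay. The median distance to a gene start was 14121 bp for the 151 strong members, 36720 bp for the others and 13652 bp for the shared distal peaks. Of all 7038 members, 63.7% (62.5 to 64.8) lay inside a gene, where 60.9% of the known bases lie, 58.0% in introns, 5.71% in exons and 36.3% between genes. Of the strong members, 23.8% (36 of 151, 17.7 to 31.2) had their centre in an exon, against 5.31% (4.81 to 5.87) of the others and 5.00% of the known bases. The shared distal peaks had 19.0% in exons (14.7 to 24.1), an interval that overlapped that of the strong members. The HCT116-, A549- and H460-only distal peaks had 11.7%, 7.24% and 10.4%. The exonic share was 57.1% (36.5 to 75.5) in the 21 strong members with a normoxia peak and 18.5% (12.7 to 26) in the 130 without one, and it was 29.6% (20.2 to 41.0) in the strong members without the HRE core and 18.8% (11.7 to 28.7) in those with it. Of the 36 exonic strong members 28 lay in an untranslated region.

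Genes of the hypoxia response had RKO-only distal peaks about as often as other genes did. Over all protein-coding genes, 21.3% (4291 of 20163) had a member within 50000 bp of their start, and over all 38865 protein-coding and lncRNA genes 20.4%. Of 70 genes in 7 hypoxia-response lists, 15 did (21.4%, 13.4 to 32.4). For glycolysis these were 6 of 17 genes, namely HK1, PFKFB3, TPI1, PGK1, ENO1 and LDHA. The strongest of their peaks was at chr1:8933776-8933936 in an untranslated region of ENO1, the gene of enolase, with 3.89 tags per 10 M, 2 AP-1 motifs and no HRE core. For glucose and lactate transport and pH it was 1 of 7 (SLC16A3, a lactate exporter, 3.14). For the mitochondrial switch and mitophagy it was 2 of 8 (COX4I2 and BNIP3L), for oxygen sensing 2 of 10 (EPAS1, which encodes HIF2A, 3.59, and HIF3A, 3.29), for collagen modification 1 of 7 (LOX, 3.89) and for hypoxia-induced regulators 2 of 11 (BHLHE40, 3.14, and BHLHE41). The HIF3A peak of 3.29 overlapped an RKO normoxia peak with a higher normalized tag count, 4.66. Of the genes named here, BHLHE41 alone had a peak of 31 tags or more.

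With a strong member required, 1.12% of the protein-coding genes (225 of 20163) and 2 of the 70 hypoxia-response genes (2.86%, 0.787 to 9.83) were near one. One of these was BHLHE41, a transcriptional repressor of the clock and the hypoxia response. Its peak at chr12:26267364-26267524 had 8.52 tags per 10 M, 2 input tags and no normoxia peak. It lay 10526 bp downstream of the BHLHE41 start, nearer to that of SSPN at 7480 bp, and its sequence above shows several HRE cores in 73.9% GC.

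Of 51 genes in 4 further lists, 14 (27.5%, 17.1 to 40.9) had a member within 50000 bp, against 21.3% of all protein-coding genes. That share lay within the interval of each list. The intervals were 15.2 to 64.6 for AP-1 subunits and 19.3 to 68.0 for the TGF-beta pathway. They were 8.89 to 53.2 for mesenchymal and 3.5 to 36.0 for colon epithelium genes. Among the AP-1 subunits it was 4 of 11 (FOS, FOSB, FOSL1 and JUN), and JUN and FOSL1 had strong ones. The peak nearest to JUN at chr1:59246624-59246784, in its untranslated region, had 9.12 in hypoxia and 6.21 in normoxia and no HRE core. A second at chr1:59245986-59246146 had 7.47, with neither motif and no normoxia peak. The peak at chr11:65679190-65679350, upstream of FOSL1 and closer to C11orf68, had 8.07, 4 input tags and an HRE core. Of the TGF-beta pathway 5 of 12 genes had a member (TGFBR1, SMAD3, SMAD6, SMAD7 and SMAD9), all between 2.54 and 3.29 tags per 10 M. Of the mesenchymal genes 3 of 12 did (ZEB1, 3.29, AXL, 2.84, and S100A4, 4.19), and of the colon epithelium genes 2 of 16 (VIL1, 3.74, and CDH17).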

How the data were processed

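HIF1A ChIP-seq was analysed from 8 deposited peak lists, 1 per line and condition. Per the labels and the study's methods, the authors aligned single-end reads to GRCh37 with Bowtie2 2.2.9, filtered them with SAMtools, marked duplicates with Picard (the submitters' processing notes give versions 1.3.1 and 1.129, and the methods give others for ChIP-seq), merged both replicates and called peaks with HOMER 4.3 in factor mode against the input of the line. Per the file headers, the deposited normalized tag count is a signal scaled to 10 M (mega) tags, the input tags are unscaled except in the A549 normoxia list, where they are scaled to the ChIP library, a peak without an input tag is given a value of 0.5, and the lists also hold the fold (ratio) over input and over the local 10000 bp. A further 6 columns of each list, among them the p-values of the peak caller, were not used. No column held a single replicate, so no result has a replicate test. Libraries held 41.2 to 81.5 M tags. Tags per peak were recovered from the normalized count and the header total.

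Motifs were searched as letters on both strands in 200-bp windows at peak centres, in flanks 2000 bp away and in 714652 genome windows spaced by 4000 bp (Python 3.11.15, pandas 2.3.3, NumPy 2.4.6, SciPy 1.17.1, pysam 0.24.0). Overlap meant 1 bp. Arms were divided at the longest internal gap of the assembly. The scripts were tested on simulated data. The peaks, gene lists and tests were chosen with earlier results of these data known. Named regions were the 10 strongest members, the strongest with and without an HRE core and with AP-1, up to 3 that overlapped a normoxia peak, the 3 weakest and the strongest near each gene list. Named genes were the 5 with most members in their body and list genes with a member within 50000 bp. Regions on chromosome 8 and a few other regions and genes that met these rules were counted but are not reported here by name.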

Additional observations from a re-analysis of the deposited data

Results flagged for a closer look

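For the line-only distal hypoxia peaks of the 4 lines, 24 measures were scanned for a line that stood far from the other 3, by the gap to the nearest line over the whole range. In 1 of them a line passed the limit, and it was not RKO: an input count of 0 was recorded at 58.1% of the H460-only distal peaks, while HCT116 stood at 33.0%, A549 at 32.9% and RKO at 28.5%. Chance puts about 1 in 20 groups past this limit. The lists had been called at different folds over input, 14 in H460, 13 in A549, 7 in HCT116 and 6 in RKO. Whether this moved the shares without an input tag was not tested. RKO had the most extreme value, without passing, for example in the median distance to a gene start (36018 bp, others 23486 to 26166 bp).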

How the results depend on the processing

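No paired analysis was possible because the authors merged replicates before calling peaks, and replicates could not be left out in turn for the same reason. The number of members kept within 1.5 times of 7038 when peaks were joined over gaps of up to 500 or 2000 bp, when any 1 other line was left out, with other limits on the distance to a start and with a fold over input of 7 (6032 to 7407). It fell to 2482 and 2310 with a fold of 13 and 14 in RKO, 2318 with 14 in all lines, 1544 with a local fold of 6 and, by choices made after the data were seen, 151 with 31 tags or more and 4360 without the 6 arms. The HRE core share stayed at 17.5% to 18.4% under the folds over input and without peaks lacking an input tag, with 16.8% to 17.6% in the flanks. With a fold of 13 it was 18.4% (16.9 to 19.9), against 16.8% in the flanks. It was 20.1% (flanks 17.1%) with a local fold of 6, 10.2% in 100-bp windows (flanks not counted) and 53.0% with 31 tags or more. For AP-1 these were 5.44%, 2.2% and 16.6%, and 5.11% with a fold of 14. The overlap with normoxia was 0.766%, 0.736% and 1.1% with folds of 13 and 14 and a local fold of 6, 0.298% with 50% of the narrower peak, 0.781% with centres within 500 bp and 13.9% with 31 tags or more. The share inside a gene was 59.5% with a local fold of 6, 49.0% for protein-coding genes and 67.5% with 31 tags or more. The median normalized tag count was 3.29 with a local fold of 6 or without peaks lacking an input tag, and 5.08 with 31 tags or more. Hypoxia-response genes had a member in 11.4%, 10.0% and 7.14% with folds of 13 and 14 and a local fold of 6, in 12.9% and 42.9% within 20000 and 100000 bp, and in 2.86% with 31 tags or more. Over all protein-coding genes the shares under these settings were 7.92%, 7.44%, 4.82%, 9.26%, 36.7% and 1.12%, each within the interval of the list. The members per Mb of the densest autosome over those of the sparsest gave a ratio of 8.96 (chromosome 8 over 21) in the main setting. With a local fold of 6 the ratio was 3.58, and the chromosomes were others (16 over 20). This limit by construction removes more peaks where the local background is high, as on the 6 arms. With a fold of 14 in all lines the HRE share was 45.8% in HCT116, 18.5% in RKO and 38.7% in A549, and in the 1000 strongest peaks 48.2%, 22.9%, 61.7% and, in H460, 70.9%. Fewer peaks by construction account for the lower counts. The cause of the other shifts was not tested. At 21 tags per median peak, counting error alone is large.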
